A study of Arabidopsis thaliana with 20 samples.

Results

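Sugar transporters move sucrose and hexoses across the plasma membrane and the vacuolar membrane of leaf cells. The 10 transporters described here were chosen by locus, from 4 families. They are the exporters SWEET4 (AT3G28007), SWEET11 (AT3G48740), SWEET12 (AT5G23660) and SWEET15 (AT5G13170, also called SAG29), the sucrose/proton symporters SUC1 (AT1G71880) and SUC2 (AT1G22710), the hexose/proton symporters STP1 (AT1G11260), STP4 (AT3G19930) and STP13 (AT5G26340), and the vacuolar exporter ERDL6 (AT1G75220). All 10 were among the 37336 loci counted in each library, and 9 passed the filter on low counts, with SWEET15 the one that did not. Counts came from 3′ RNA sequencing of rosette leaves from long-day plants of Arabidopsis thaliana in the Col-0 background. The 4 groups of 5 libraries were the snrk2.4/snrk2.10 mutant at 45 days after sowing (DAS), the same mutant at 25 DAS, wild type at 45 DAS and wild type at 25 DAS, with no treatment named for any of them. The mutant is affected in both SNRK2.4 and SNRK2.10, which encode kinases of the SnRK2 family, and the series concerns their role in leaf senescence and in abscisic acid (ABA) production and signalling. The labels name neither the alleles nor the number of plants in a library, and do not say whether libraries of a group came from separate plants, so p-values measure the spread between these libraries.

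In a mature leaf, sucrose made in photosynthetic cells leaves phloem parenchyma through SWEET11 and SWEET12 and is taken up into the companion cells by SUC2, which loads the phloem. STP proteins bring glucose and other monosaccharides from the cell wall space back into cells, together with protons, and ERDL6 releases glucose from the vacuole. A senescing leaf is dismantled and exports its carbon and nitrogen to the rest of the plant, and SWEET15 was first described as a senescence-associated gene.

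The mutant libraries totalled 615317 to 1827404 counts at 45 DAS and 1414164 to 1991026 counts at 25 DAS, and the wild-type libraries 637536 to 1223813 counts at 45 DAS and 985639 to 2343212 counts at 25 DAS. Levels are given as counts scaled to a common library total (CPM) with the TMM method, whose factors lay between 0.748 and 0.831 at 25 DAS and between 1.13 and 1.32 at 45 DAS. The spread between libraries, as the biological coefficient of variation over all tested genes, was 19.2% in the mutant and 30.0% in wild type at 45 DAS, and 13.3% in the mutant and 11.0% in wild type at 25 DAS, so differences at 45 DAS were measured less precisely. SNRK2.4 averaged 2.67 ± 1.72 CPM in the mutant and 80.0 ± 5.39 CPM in wild type at 45 DAS, and 4.92 ± 2.48 CPM in the mutant and 37.3 ± 8.63 CPM in wild type at 25 DAS (SD, n = 5 each). SNRK2.10 averaged 31.4 ± 4.85 CPM in the mutant and 75.1 ± 5.75 CPM in wild type at 45 DAS, and 47.0 ± 6.01 CPM in the mutant and 62.9 ± 11.3 CPM in wild type at 25 DAS, and with no allele named, whether 3′ counts can report its lesion is not known. Photosynthetic markers showed the leaf tissue: the summed CPM of RBCS1A, LHCB1.3, CA1, PSBO1 and RCA lay between 5634 and 7443 in the mutant and between 1699 and 7079 in wild type at 45 DAS, and between 69815 and 81644 in the mutant and between 71343 and 76440 in wild type at 25 DAS. At 45 DAS wild-type replicate 1 stood apart, with a sum of 7079 against 1699 to 3502 in the other 4 wild-type libraries, which lay below every mutant library. Transporter results at 45 DAS that change without replicate 1 are therefore given both ways, except the SWEET15 ratio between genotypes, which is given only with replicate 1. Other genes and markers at 45 DAS are given only with it, although calls between genotypes over all tested genes went from 444 to 1430 without it. Of the root markers, BGLU22 and AT5G17820 had no count in any library, and the summed CPM of all 4 did not exceed 5.67.

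The 250 bases before the annotated start are shown for 5 of the 10 transporters, read from the TAIR10.1 reference and written 5′ to 3′ on the strand of the gene. Capitals mark the G-box CACGTG and the ABRE core ACGTG, which are sequences bound by bZIP factors of ABA signalling, and the W-box core TTGAC, bound by WRKY factors, each searched on both strands. Since the G-box contains the ABRE core on both strands, 1 G-box also counts as 2 ABRE cores. SWEET4 lies on the minus strand, with its upstream window at chr3:10409978-10410227. The SWEET11 window is chr3:18054833-18055082 and the SWEET12 window chr5:7973996-7974245, both on the minus strand. STP1 and STP4 lie on the plus strand, with windows chr1:3776986-3777235 and chr3:6934318-6934567.
SWEET4: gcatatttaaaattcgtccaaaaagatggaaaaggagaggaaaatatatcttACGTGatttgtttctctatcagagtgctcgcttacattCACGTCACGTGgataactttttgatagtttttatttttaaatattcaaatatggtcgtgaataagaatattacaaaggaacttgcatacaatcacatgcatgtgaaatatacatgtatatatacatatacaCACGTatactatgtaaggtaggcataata
SWEET11: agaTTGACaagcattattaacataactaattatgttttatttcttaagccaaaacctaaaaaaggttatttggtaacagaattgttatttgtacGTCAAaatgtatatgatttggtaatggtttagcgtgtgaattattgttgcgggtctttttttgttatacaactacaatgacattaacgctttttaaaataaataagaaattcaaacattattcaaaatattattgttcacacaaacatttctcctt
SWEET12: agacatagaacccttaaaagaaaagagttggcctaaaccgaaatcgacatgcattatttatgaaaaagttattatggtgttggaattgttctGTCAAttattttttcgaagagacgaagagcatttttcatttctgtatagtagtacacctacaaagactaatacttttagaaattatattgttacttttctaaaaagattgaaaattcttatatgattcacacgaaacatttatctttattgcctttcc
STP1: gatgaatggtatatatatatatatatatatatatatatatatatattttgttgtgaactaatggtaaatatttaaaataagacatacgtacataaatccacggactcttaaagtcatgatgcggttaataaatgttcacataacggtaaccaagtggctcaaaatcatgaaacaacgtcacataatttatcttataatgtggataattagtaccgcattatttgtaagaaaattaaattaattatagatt
STP4: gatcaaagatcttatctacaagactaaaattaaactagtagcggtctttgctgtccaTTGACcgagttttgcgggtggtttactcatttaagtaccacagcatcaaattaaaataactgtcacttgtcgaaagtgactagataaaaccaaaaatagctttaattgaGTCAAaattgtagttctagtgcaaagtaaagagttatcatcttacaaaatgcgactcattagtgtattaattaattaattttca
The SWEET4 window held 1 G-box, 155 bases before the start, and 5 ABRE cores in all. The SWEET11 window held W-box cores 247 and 156 bases before the start, the SWEET12 window 1 at 158 bases, and the STP4 window 2, at 193 and 84 bases. The STP1 window held none of the 3 motifs, and neither did that of STP13, which is not shown. Across all 10 transporters, 3 held a G-box (SWEET4, SUC1 and SUC2), 5 an ABRE core (those 3, SWEET15 and ERDL6) and 4 a W-box core (SWEET11, SWEET12, SWEET15 and STP4). Of the 27438 windows of the same length before protein-coding genes, 6.49% held a G-box, 22.9% an ABRE core and 44.9% a W-box core. These letters are a description of the sequence and not evidence of binding.

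The comparison of the genotypes asks which transporters differ in level between the snrk2.4/snrk2.10 line and wild type, and that of the ages which change as the leaf ages. At 25 DAS the mutant leaves held fewer transcripts of the hexose symporters STP1 and STP4 than wild-type leaves. At 45 DAS the ranges of both overlapped between the genotypes, and SWEET4 was lower in the mutant, a call near the threshold that was lost without any 1 of the mutant libraries of that age. With age, the exporters SWEET11 and SWEET12 and the symporter STP13 rose in both genotypes, while STP1 and ERDL6 fell in both. Only for STP1 and STP4 did the test of the difference between the genotypes' age changes pass the threshold.

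At an adjusted p under 0.05 (edgeR's quasi-likelihood test with Benjamini-Hochberg adjustment over all tested genes), 2 of the 9 tested transporters differed between the genotypes at 25 DAS, both lower in the mutant, where 8.65% of all 14503 tested genes differed, 4.94% higher and 3.71% lower. At 45 DAS, 1 of 9 was lower in the mutant, against 3.06% of all tested genes called, 1.45% higher and 1.61% lower. That 1 was SWEET4, which passed the filter on low counts through the wild-type libraries at 45 DAS, where it was high. Its call here and its rise with age in wild type, counted below, are thus not independent of the filter. Age moved most of the transcriptome, and 68.5% of all tested genes changed between 25 and 45 DAS in wild type and 70.9% in the mutant. In the mutant 6 of the 9 transporters rose with age and 2 fell, where 35.9% of all tested genes rose and 35.0% fell. In wild type 4 rose and 2 fell, where 34.9% of all tested genes rose and 33.7% fell, so the share that changed was close to that of all genes. The interaction, the age change in the mutant minus that in wild type, passed for 2 of 9 transporters, both positive, and for 3.21% of all tested genes, with 1.83% positive and 1.37% negative. With library totals in place of TMM, the median of all tested genes with age shifted to 0.75 in the mutant and 0.72 in wild type on the log2 scale, and the calls became 7 higher and 1 lower in the mutant, where SWEET4 was added and STP1 was lost, and 7 higher and 2 lower in wild type, where SUC1, SUC2 and STP4 were added with changes near that shift. Non-overlap of the 5 libraries of one group with the 5 of the other was found for 2 of the 10 transporters between genotypes at 25 DAS (7.72% of all tested genes), for 0 at 45 DAS (6.02%), for 3 between ages in the mutant (57.1%) and for 7 between ages in wild type (54.8%). The 7 include SWEET15, which was not tested and was separate only because 1 count at 45 DAS exceeded 2 counts at 25 DAS after scaling. The shares cover tested genes only.

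**Figure D1:**
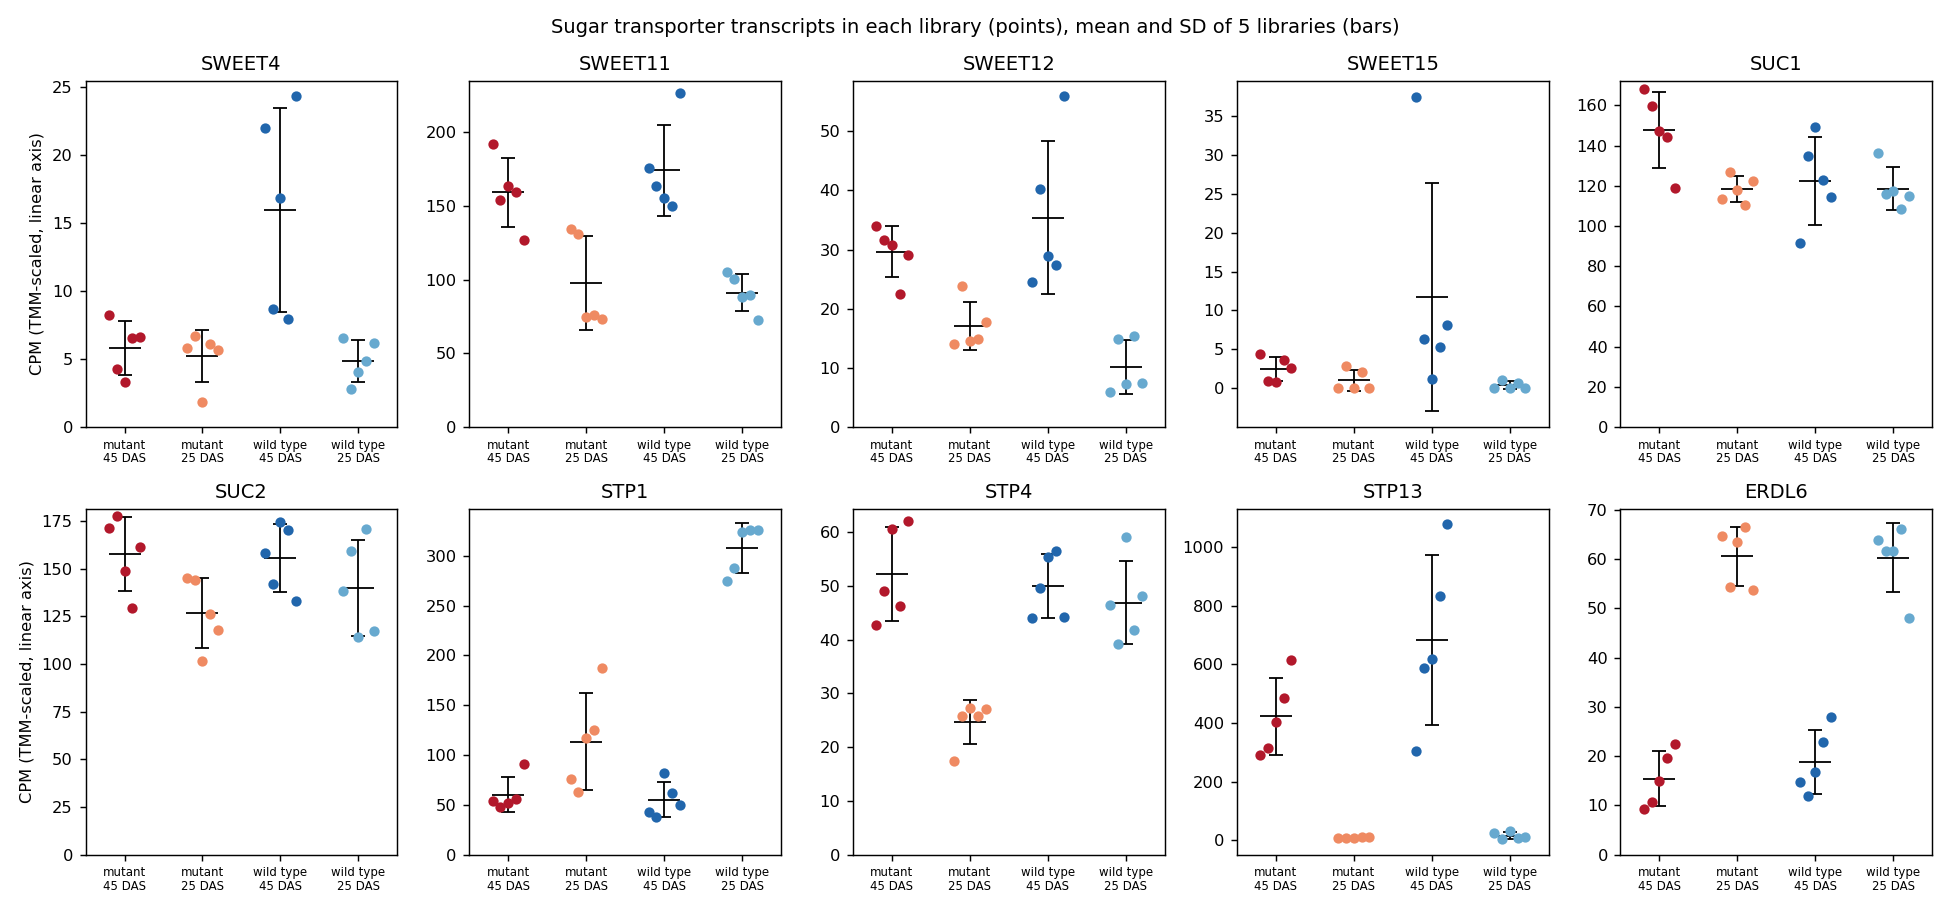
Level of each transporter in CPM on a linear axis, with 1 point per library, a line at the mean and bars of 1 SD for the 5 libraries of the mutant and of wild type at 45 and 25 DAS. For STP1, the mutant libraries at 25 DAS reach 187 CPM at most and the wild-type libraries of that age 274 CPM at least, while for STP13 every library at 45 DAS lies above 290 CPM and every library at 25 DAS below 32 CPM.

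STP1, a plasma membrane symporter known for expression in guard cells and for repression by sugars, lies at chr1:3777236-3780823 on the plus strand. At 25 DAS the mutant libraries held 75.4, 63.0, 117, 125 and 187 CPM of STP1, against 274, 288, 324, 326 and 326 CPM in wild type. The groups did not overlap, and the mutant libraries were spread about a mean of 113 ± 48.9 CPM, with the wild-type libraries at 308 ± 24.8 CPM (SD, n = 5 each). The log2 fold change was -1.41 (SE 0.26, edgeR adjusted p = 0.0148), a level 2.66-fold lower in the mutant. At 45 DAS the mutant libraries held 54.3, 47.9, 51.5, 55.8 and 91.2 CPM and the wild-type libraries 43.2, 37.9, 81.9, 61.8 and 50.1 CPM. Those groups overlapped, with a log2 fold change of 0.12 (SE 0.22, edgeR adjusted p = 0.842). In wild type the level at 45 DAS was 5.64-fold lower than at 25 DAS (log2 fold change -2.50, SE 0.19, edgeR adjusted p = 2.10e-08), with no overlap between the ages. In the mutant the fall with age was 1.95-fold (log2 fold change -0.97, SE 0.31, edgeR adjusted p = 0.0203), and the ranges of the 2 ages overlapped. That fall was not called without mutant replicate 2 at 45 DAS (-0.89, edgeR adjusted p = 0.0511) or with scaling by library totals (-0.29, edgeR adjusted p = 0.429). The interaction was 1.54 (SE 0.35, edgeR adjusted p = 0.0197), the fall with age being larger in wild type, and with counts thinned to the smallest library it missed the threshold (1.54, edgeR adjusted p = 0.0643).

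The guard cell markers AT1G22690, FAMA, MYB60 and SLAC1 summed to 431 to 504 CPM in the mutant and to 408 to 518 CPM in wild type at 25 DAS, overlapping ranges, and none of the 4 was called between genotypes at that age. With age the sum was lower in both genotypes, at 78.9 to 119 CPM in the mutant and 40.5 to 76.6 CPM in wild type at 45 DAS, beside the lower STP1. Of the 4 markers, 3 fell with age in each genotype, while SLAC1 rose (log2 fold change 1.297 in the mutant, edgeR adjusted p = 3.61e-05, and 1.05 in wild type, edgeR adjusted p = 0.00655). Their part in the fall of STP1 was not tested. In such whole-leaf samples, fewer cells of a type and less RNA per cell cannot be told apart. STP1 lies 118.6 kb from SNRK2.4 on chromosome 1. Of the 17 tested genes between them, 1 was called between genotypes at 25 DAS, and it was not lower in the mutant, and at 45 DAS the count was 0. Whether a linked difference between the lines bears on STP1 was not tested. STP1 overlaps AT1G11270 on the opposite strand, and since the use of strand in counting is not given, their reads cannot be told apart with certainty. AT1G11270 held 76 counts over all 20 libraries and STP1 held 3584.

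STP4, a monosaccharide symporter of sink tissues known to be induced by wounding and pathogens, lies at chr3:6934568-6937197 on the plus strand. In the mutant at 25 DAS its libraries held 17.4, 25.8, 27.2, 25.8 and 27.2 CPM, against 46.4, 39.1, 59.2, 41.7 and 48.1 CPM in wild type at 25 DAS. Every mutant library was below every wild-type library. The log2 fold change was -0.91 (SE 0.16, edgeR adjusted p = 0.000541), a level 1.87-fold lower in the mutant. At 45 DAS the values were 42.8, 49.1, 60.6, 46.3 and 62.1 CPM in the mutant and 44.0, 49.7, 55.4, 56.5 and 44.2 CPM in wild type, overlapping groups with a log2 fold change of 0.05 (SE 0.15, edgeR adjusted p = 0.908). STP4 rose with age 2.07-fold in the mutant (log2 fold change 1.05, SE 0.16, edgeR adjusted p = 4.99e-06), without overlap between the ages. In wild type its age change was 0.09 (SE 0.15, edgeR adjusted p = 0.605). The interaction was 0.96 (SE 0.21, edgeR adjusted p = 0.0155).

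STP13, a high-affinity hexose symporter known for its response to pathogens and cell death and listed under the symbol MSS1 in the annotation, lies at chr5:9243398-9247540 on the minus strand. In the mutant it held 292, 314, 404, 486 and 615 CPM at 45 DAS, against 5.80, 5.73, 7.25, 10.9 and 10.7 CPM at 25 DAS. In wild type it held 304, 588, 617, 835 and 1078 CPM at 45 DAS, against 23.5, 4.96, 31.6, 7.65 and 11.1 CPM at 25 DAS. The ages were far apart in both genotypes. The rise was 50.0-fold in the mutant (log2 fold change 5.64, SE 0.29, edgeR adjusted p = 2.25e-08) and 43.5-fold in wild type (5.44, SE 0.54, edgeR adjusted p = 4.48e-06), and the interaction was 0.20 (SE 0.62, edgeR adjusted p = 0.916). Between genotypes the log2 fold change was -0.70 at 45 DAS (SE 0.31, edgeR adjusted p = 0.238) and -0.88 at 25 DAS (SE 0.54, edgeR adjusted p = 0.397), with overlapping groups at both ages. With thinned counts the difference at 25 DAS was called (-1.65, edgeR adjusted p = 0.0487). Without wild-type replicate 1 at 45 DAS, the lowest of its group, the difference at that age was called (-0.89, edgeR adjusted p = 0.0310).

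**Figure D2:**
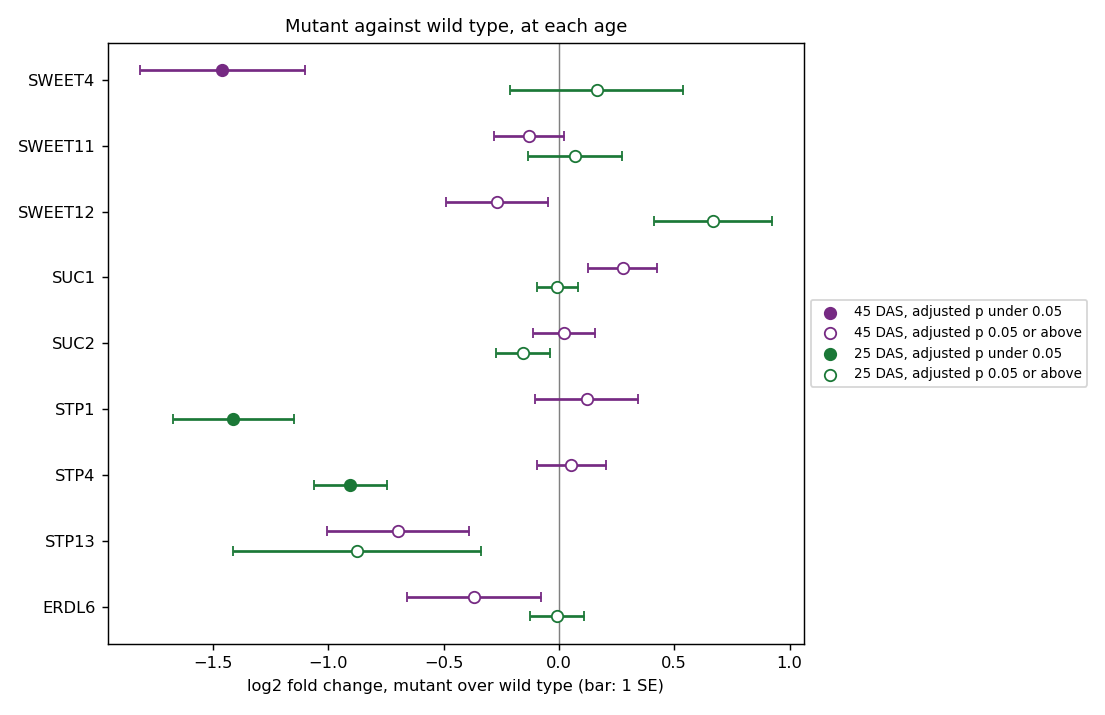
Log2 fold change of the mutant over wild type for the 9 tested transporters at 45 DAS (upper marker of each pair) and 25 DAS (lower marker), with bars of 1 SE and filled markers where the adjusted p was under 0.05. The filled markers are SWEET4 at 45 DAS (-1.46), and STP1 (-1.41) and STP4 (-0.91) at 25 DAS.

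Of the exporters, SWEET4, which carries glucose and fructose and is known from the veins, lies at chr3:10408073-10409977 on the minus strand. At 45 DAS the mutant libraries held 8.22, 4.27, 3.32, 6.53 and 6.61 CPM, against 22.0, 8.68, 16.9, 7.94 and 24.3 CPM in wild type. Only the highest mutant library exceeded the lowest wild-type library. The log2 fold change was -1.46 (SE 0.36, edgeR adjusted p = 0.0410), a level 2.75-fold lower in the mutant. The call is near the threshold: it was lost without wild-type replicate 3 or 5 or without any 1 of the 5 mutant libraries (adjusted p between 0.0640 and 0.128), and with a minimum mean of 5 CPM (adjusted p = 0.0512), and it was kept under 12 of 20 alternatives, whose edgeR, limma or DESeq2 adjusted p lay between 0.00536 and 0.128. Without wild-type replicate 1 at 45 DAS it was called (-1.32, edgeR adjusted p = 0.0361). The filter required 5 libraries above 7.08 CPM before TMM scaling, and those of SWEET4 were all 5 of wild type and 3 of the mutant at 45 DAS, so that it was tested through the group in which it was high. Beside this difference, the photosynthetic marker sum was lower in 4 of the 5 wild-type libraries at 45 DAS than in any mutant library, with replicate 1 the exception. None of the 5 markers was called at that age, with PSBO1 (log2 fold change 1.00, edgeR adjusted p = 0.05005) and RCA (0.91, edgeR adjusted p = 0.0510) nearest to it. The guard cell marker AT1G22690 was called (1.13, edgeR adjusted p = 0.0357), and the part of these markers was not tested. At 25 DAS the mutant libraries held 1.81 to 6.68 CPM and the wild-type libraries 2.75 to 6.53 CPM, with a log2 fold change of 0.16 (SE 0.38, edgeR adjusted p = 0.855). With age SWEET4 was 3.35-fold higher in wild type (log2 fold change 1.74, SE 0.37, edgeR adjusted p = 0.000636), with no overlap between the ages, and its log2 fold change was 0.13 in the mutant (SE 0.35, edgeR adjusted p = 0.763). The interaction was -1.62 (SE 0.53) and missed the threshold (edgeR adjusted p = 0.100), so the age changes were not shown to differ between the genotypes, although it was called without wild-type replicate 4 at 45 DAS (-1.79, edgeR adjusted p = 0.0460).

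SWEET11 and SWEET12, the sucrose exporters of phloem parenchyma, lie at chr3:18052466-18054832 and chr5:7971647-7973995, both on the minus strand. SWEET11 held 192, 154, 164, 160 and 127 CPM in the mutant at 45 DAS, against 134, 131, 74.3, 76.0 and 73.3 CPM in the mutant at 25 DAS. In wild type it held 176, 163, 155, 150 and 227 CPM at 45 DAS, against 105, 100.3, 88.3, 89.7 and 72.8 CPM at 25 DAS. The ages were separate in wild type, and in the mutant the lowest library at 45 DAS fell below 2 libraries at 25 DAS. The rise was 1.64-fold in the mutant (log2 fold change 0.72, SE 0.19, edgeR adjusted p = 0.00531) and 1.90-fold in wild type (0.93, SE 0.15, edgeR adjusted p = 6.14e-05). Between genotypes its log2 fold change was -0.13 at 45 DAS (SE 0.15, edgeR adjusted p = 0.726) and 0.07 at 25 DAS (SE 0.20, edgeR adjusted p = 0.892).

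SWEET12 held 34.0, 31.6, 30.7, 22.6 and 29.1 CPM in the mutant at 45 DAS, against 14.1, 23.9, 14.5, 14.9 and 17.7 CPM in the mutant at 25 DAS. In wild type it held 24.5, 40.2, 28.9, 27.4 and 56.0 CPM at 45 DAS, against 5.88, 14.9, 7.29, 15.3 and 7.41 CPM at 25 DAS. The ages were separate in wild type and overlapped in the mutant by 1 library of each. SWEET12 rose 1.75-fold in the mutant (log2 fold change 0.81, SE 0.18, edgeR adjusted p = 0.000519, but 0.41 and 0.211 with thinned counts) and 3.39-fold in wild type (1.76, SE 0.31, edgeR adjusted p = 0.000116). The interaction was -0.95 (SE 0.36, edgeR adjusted p = 0.162), so the smaller fold in the mutant was not shown to differ from that in wild type. Between genotypes the log2 fold change was -0.27 at 45 DAS (SE 0.22, edgeR adjusted p = 0.573) and 0.67 at 25 DAS (SE 0.26, edgeR adjusted p = 0.108). The last 300 bases of the SWEET11 and SWEET12 transcripts aligned to each other over 69 bases at 79.7% identity, and no other transporter's end matched another transcript, so few reads can be shared between the members.

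SWEET15, the senescence-associated sucrose exporter, lies at chr5:4181042-4183354 on the minus strand and was too rare for the filter. Its counts were 8, 2, 1, 6 and 2 in the mutant at 45 DAS, 0, 3, 0, 3 and 0 in the mutant at 25 DAS, 46, 8, 1, 6 and 11 in wild type at 45 DAS, and 0, 2, 0, 1 and 0 in wild type at 25 DAS. Of the 72 counts in wild type at 45 DAS, 46 came from replicate 1. In wild type the ratio of 45 over 25 DAS, from 72 against 3 counts, was 28.2 (95% interval 9.26 to 140, counting error only). Without wild-type replicate 1 at 45 DAS it was 12.9. A two-sided exact permutation test on log2(CPM + 1) gave p = 0.007937, the smallest that 252 arrangements allow, and 0.0317 adjusted over the 4 pairs of groups. That value needs every library at 45 DAS above every library at 25 DAS. The order held by 1 count in replicate 3 at 45 DAS (1.20 CPM) against 2 counts in replicate 2 at 25 DAS (1.10 CPM). Both lie below the floor of 3 counts, so the order of these libraries, and with it this smallest value, is not secure. In the mutant the ratio of 45 over 25 DAS was 2.60 (0.998 to 7.96, exact permutation p = 0.127). Between genotypes at 45 DAS, mutant over wild type, it was 0.197 (0.112 to 0.329). This ratio keeps the 46 counts of wild-type replicate 1 and was not computed without them, and its interval covers counting error only. The exact permutation p was 0.0873, so a difference beyond the spread between libraries was not shown. At 25 DAS the genotypes had 6 counts in the mutant and 3 in wild type, too few to compare (exact permutation p = 0.563).

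SUC2, the companion cell symporter that loads the phloem, lies at chr1:8030587-8033156 on the minus strand. Its libraries held 172, 178, 149, 129 and 161 CPM in the mutant at 45 DAS, 145, 144, 102, 126 and 118 CPM in the mutant at 25 DAS, 158, 142, 175, 170 and 133 CPM in wild type at 45 DAS, and 138, 159, 114, 171 and 117 CPM in wild type at 25 DAS. All 4 ranges overlapped. The rise with age in the mutant was 1.24-fold (log2 fold change 0.31, SE 0.12, edgeR adjusted p = 0.0200), and was not called without mutant replicate 3 at 25 DAS (edgeR adjusted p = 0.0697), without mutant replicate 2 at 45 DAS (edgeR adjusted p = 0.0613) or with thinned counts (edgeR adjusted p = 0.168). In wild type the age change was 0.15 (SE 0.15, edgeR adjusted p = 0.397). Between genotypes the log2 fold change was 0.02 at 45 DAS (SE 0.14, edgeR adjusted p = 0.965) and -0.15 at 25 DAS (SE 0.12, edgeR adjusted p = 0.482).

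SUC1, a sucrose symporter known from pollen and roots, lies at chr1:27054030-27056464 on the plus strand. Mutant libraries held 119 to 168 CPM at 45 DAS and 111 to 127 CPM at 25 DAS, and wild-type libraries 91.3 to 149 CPM at 45 DAS and 108 to 136 CPM at 25 DAS. SUC1 rose with age 1.26-fold in the mutant (log2 fold change 0.33, SE 0.10, edgeR adjusted p = 0.00766, or 0.0867 with thinned counts), where all but 1 library at 45 DAS exceeded every library at 25 DAS. In wild type its age change was 0.04 (SE 0.15, edgeR adjusted p = 0.809), and the interaction was 0.29 (SE 0.17, edgeR adjusted p = 0.423). Its genotype difference was 0.28 at 45 DAS (SE 0.15, edgeR adjusted p = 0.349) and -0.01 at 25 DAS (SE 0.09, edgeR adjusted p = 0.983). The pollen markers VGD1, PPME1 and ACA9 summed to at most 6.61 CPM in the mutant and 10.8 CPM in wild type at 45 DAS, and to at most 1.66 CPM in the mutant and 1.31 CPM in wild type at 25 DAS.

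The phloem markers changed with age in both directions. The summed CPM of AHA3, AKT2, APL, NAKR1, PP2A1, FTIP1, SEOR1 and SEOR2 lay between 537 and 634 in the mutant and between 480 and 619 in wild type at 45 DAS, and between 374 and 431 in the mutant and between 372 and 451 in wild type at 25 DAS. Their sum was thus higher at 45 DAS in both genotypes, without overlap between the ages. Of the 8 markers, 2 rose and 3 fell with age in the mutant, and 3 rose and 3 fell in wild type. PP2A1, with 6383 counts over all libraries, weighed most in the sum and rose (log2 fold change 1.78 in the mutant, 1.26 in wild type). SEOR1 (-4.18 and -4.72), SEOR2 (-3.74 and -4.93) and AKT2 (-1.13 and -1.41) fell in the mutant and in wild type. Between genotypes 1 of 8, the potassium channel gene AKT2, was called at 25 DAS (log2 fold change 0.61, edgeR adjusted p = 0.0494) and 0 at 45 DAS. The part of the phloem share in the age changes of SWEET11, SWEET12 and SUC2 was not tested.

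ERDL6, the vacuolar glucose exporter, lies at chr1:28229026-28233134 on the minus strand. It held 9.32, 10.7, 15.0, 19.6 and 22.5 CPM in the mutant at 45 DAS, against 64.7, 54.4, 63.5, 66.5 and 53.7 CPM in the mutant at 25 DAS. In wild type it held 14.7, 11.8, 16.9, 22.9 and 28.0 CPM at 45 DAS, against 64.0, 61.7, 61.6, 66.1 and 48.1 CPM at 25 DAS. The ages did not overlap in either genotype. The fall with age was 4.17-fold in the mutant (log2 fold change -2.06, SE 0.19, edgeR adjusted p = 4.64e-09) and 3.19-fold in wild type (-1.67, SE 0.21, edgeR adjusted p = 3.36e-06), and the interaction was -0.38 (SE 0.29, edgeR adjusted p = 0.556). Between genotypes the log2 fold change was -0.37 at 45 DAS (SE 0.29, edgeR adjusted p = 0.547) and -0.01 at 25 DAS (SE 0.12, edgeR adjusted p = 0.980). ERDL6 overlaps AT1G75210 on the opposite strand by 57 bases. That neighbour averaged 20.7 ± 7.51 CPM in the mutant and 18.8 ± 4.31 CPM in wild type at 45 DAS, and 37.2 ± 7.27 CPM in the mutant and 39.8 ± 3.04 CPM in wild type at 25 DAS (SD, n = 5 each). Because the use of strand is not given, the part of these reads in the ERDL6 count was not tested.

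**Figure D3:**
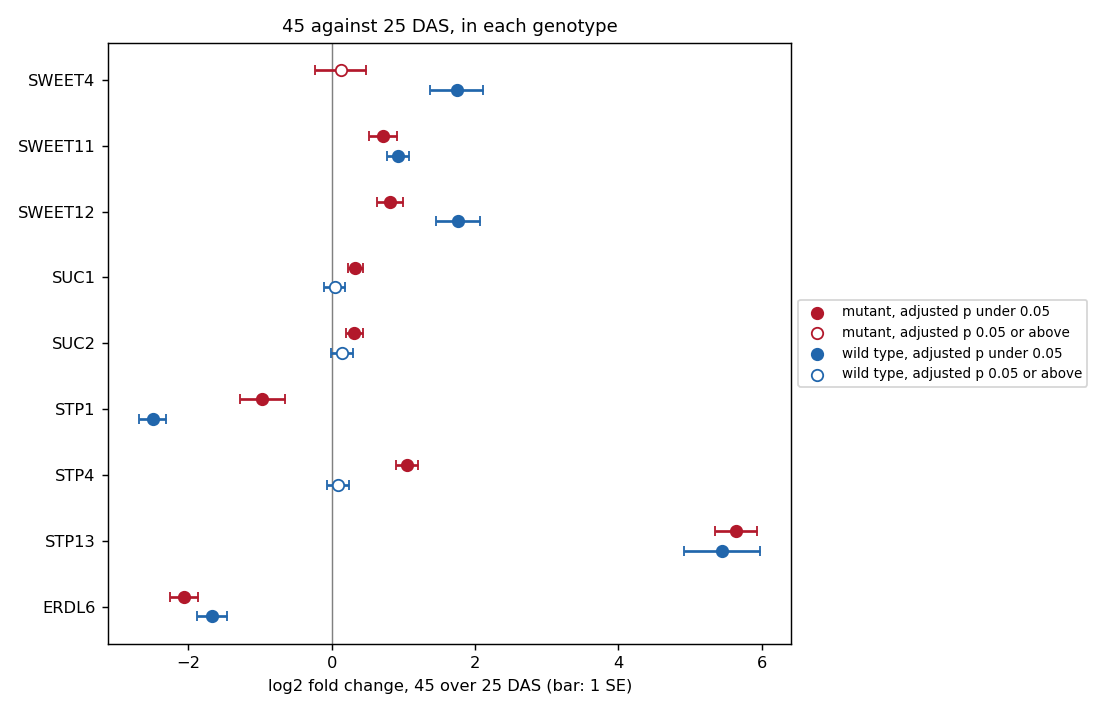
Log2 fold change of 45 over 25 DAS for the 9 tested transporters in the mutant (upper marker of each pair) and in wild type (lower marker), with bars of 1 SE and filled markers where the adjusted p was under 0.05. STP13 stands at 5.64 in the mutant and 5.44 in wild type, and the 2 markers lie farthest apart for SWEET4 (0.13 in the mutant and 1.74 in wild type) and STP1 (-0.97 in the mutant and -2.50 in wild type).

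Ordered by mean level, the 4 groups fell into few separate steps. STP1 was highest in wild type at 25 DAS, clear of the mutant at 25 DAS, and the neighbours below it (mutant at 25 DAS, mutant at 45 DAS, wild type at 45 DAS) overlapped. STP4 was lowest in the mutant at 25 DAS, clear of the 3 other groups, which overlapped from one to the next. For STP13 and ERDL6 the one step without overlap lay between the ages. SWEET4, SWEET11, SWEET12, SWEET15, SUC1 and SUC2 had no step without overlap between neighbouring groups.

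The genes whose profiles over the 20 libraries lay nearest to each transporter were found by the root mean square difference of log2 CPM, each gene centred on its own mean. WRKY51, a WRKY transcription factor gene, was nearest to STP13 (0.411, where the SD of STP13 itself was 2.88), followed by AT5G37600 (0.459), a cytosolic glutamine synthetase gene. MGD1, which encodes a galactolipid synthase of plastids, was the second nearest to ERDL6 (0.297) after AT4G00300 (0.282). CLPR1 (0.188) and NFU1 (0.190), both genes of plastid proteins, lay nearest to SWEET11, and KCO5 (0.291), a potassium channel gene, and AT4G26130 (0.292) nearest to SWEET12. AT3G23550 (0.380) and AT5G44260 (0.387) were nearest to STP1, AT2G07180 (0.214) and AT1G49032 (0.230) to STP4, and ECA2 (0.448) and CSY2 (0.451) to SWEET4. HAP6 (0.158) and PBC1 (0.169) were nearest to SUC1, and AT2G20330 (0.167) and ACR5 (0.183) to SUC2. The SD of the transporter itself was 0.211 for SUC1, 0.230 for SUC2, 0.480 for STP4 and 0.505 for SWEET11. It was 0.747 for SWEET4, 0.780 for SWEET12, 0.982 for ERDL6 and 1.09 for STP1. For SUC1, SUC2 and SWEET4 the distances were thus large beside the gene's own variation, and a small distance there does not mark a closer likeness. None of these nearest genes was on the lists of other sugar genes.

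The other sugar genes comprised 85 loci in 6 lists: the remaining SWEET, SUC and STP genes, the ERD6-like genes, other sugar and sugar phosphate carriers, and the enzymes of sucrose synthesis and cleavage, of which 46 were tested. Between genotypes at 25 DAS, 5 were higher in the mutant and 3 lower, beside 4.94% and 3.71% of all tested genes, with a median log2 fold change of 0.06 over the 46 and 0.03 over all tested genes. By list, 2 of 4 SWEET, 0 of 1 SUC, 0 of 3 STP, 3 of 12 ERD6-like, 0 of 13 other carrier and 3 of 13 sucrose enzyme genes were called. CWINV1, a cell wall invertase that cleaves sucrose into the hexoses STP proteins take up, averaged 19.5 ± 7.13 CPM in the mutant and 38.5 ± 2.75 CPM in wild type (log2 fold change -0.94, edgeR adjusted p = 0.00145). ERD6, a vacuolar sugar carrier, averaged 144 ± 37.1 CPM in the mutant and 286 ± 30.1 CPM in wild type (-0.98, edgeR adjusted p = 0.00653). The ERD6-like AT1G54730 averaged 11.0 ± 1.53 CPM in the mutant and 17.5 ± 0.924 CPM in wild type (-0.67, edgeR adjusted p = 0.0372). In these 3, already picked as called, every mutant library lay below every wild-type library. Of all tested genes, 7.72% showed no overlap in either direction at that age.

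The other 5 called genes were higher in the mutant at 25 DAS. SWEET17, a fructose carrier of the vacuolar membrane, averaged 88.1 ± 13.0 CPM in the mutant and 60.6 ± 9.32 CPM in wild type (log2 fold change 0.53, edgeR adjusted p = 0.00674). The vacuolar invertase gene ATBETAFRUCT4 (AT1G12240) averaged 94.9 ± 13.5 CPM in the mutant and 65.0 ± 7.09 CPM in wild type (0.53, edgeR adjusted p = 0.00347). A glycosyl hydrolase gene of the enzyme list, AT1G62660, averaged 25.2 ± 4.56 CPM in the mutant and 16.1 ± 3.19 CPM in wild type (0.63, edgeR adjusted p = 0.0337). The ERD6-like AT4G04750 averaged 15.9 ± 6.18 CPM in the mutant and 7.56 ± 2.96 CPM in wild type (1.06, edgeR adjusted p = 0.0362). The remaining call was SWEET13, named after its values were seen, which averaged 2.38 ± 0.903 CPM in the mutant and 0.110 ± 0.246 CPM in wild type, from 1 count in wild type, too low for a stable fold.

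**Figure D4:**
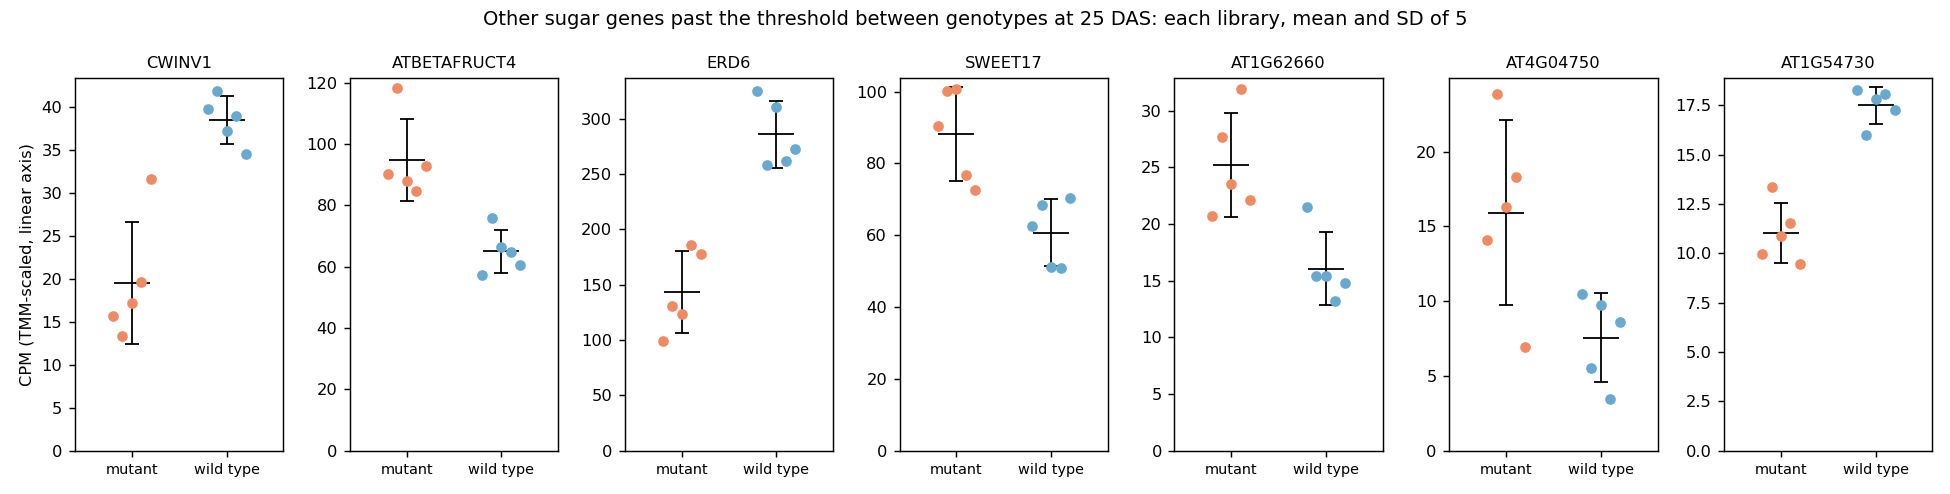
Level in CPM, on linear axes that start at 0, of the 7 other sugar genes past the threshold between genotypes at 25 DAS and with a mean of at least 10 CPM, with 1 point per library, a line at the mean and bars of 1 SD for the 5 mutant and 5 wild-type libraries. CWINV1, ERD6 and AT1G54730 lie lower in all 5 mutant libraries than in any wild-type library, and ATBETAFRUCT4 and SWEET17 lie higher in all 5.

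At 45 DAS, with wild-type replicate 1 kept, 1 of the 46 other sugar genes was higher in the mutant and 3 lower. Of all tested genes 1.45% were higher and 1.61% lower, and the median log2 fold change over the 46 was -0.07. SWEET2, a glucose carrier of the vacuolar membrane, averaged 1.76 ± 1.24 CPM in the mutant and 26.4 ± 22.3 CPM in wild type (log2 fold change -3.87, edgeR adjusted p = 0.0448). SUS3, a sucrose synthase, averaged 7.35 ± 1.27 CPM in the mutant and 32.0 ± 19.3 CPM in wild type (-2.17, edgeR adjusted p = 0.00934). GPT2, which exchanges glucose 6-phosphate for phosphate across the plastid envelope, averaged 117 ± 29.0 CPM in the mutant and 238 ± 51.2 CPM in wild type (-1.03, edgeR adjusted p = 0.0132). The triose phosphate translocator gene TPT (AT5G46110) averaged 1490 ± 80.6 CPM in the mutant and 717 ± 246 CPM in wild type (1.06, edgeR adjusted p = 0.0208). None of the called genes of one age was called at the other. The interaction passed for SWEET2 (-4.02, edgeR adjusted p = 0.0122), AT1G54730 (1.38, edgeR adjusted p = 0.0160) and TPT (1.04, edgeR adjusted p = 0.0268).

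With age, 24 of the 46 rose and 13 fell in the mutant, where 35.9% of all tested genes rose and 35.0% fell, with a median log2 fold change of 0.47 beside 0.06 for all tested genes. In wild type 22 rose and 15 fell, where 34.9% of all tested genes rose and 33.7% fell, with a median of 0.58 beside 0.07. SWEET13, a sucrose exporter of the same clade as SWEET11 and SWEET12, averaged 81.2 ± 14.7 CPM at 45 DAS and 2.38 ± 0.903 CPM at 25 DAS in the mutant (log2 fold change 5.09, edgeR adjusted p = 3.74e-14). In wild type SWEET13 had 411 counts over the 5 libraries at 45 DAS and 1 at 25 DAS, a ratio of 483 (95% interval 86.1 to 19105, counting error only). GPT2 averaged 117 ± 29.0 CPM at 45 DAS and 0.981 ± 1.13 CPM at 25 DAS in the mutant (6.84, edgeR adjusted p = 5.77e-10), and in wild type it had 1408 counts at 45 DAS and 1 at 25 DAS. The cell wall invertase gene CWINV6 had 468 counts at 45 DAS and 2 at 25 DAS in the mutant, and 356 counts at 45 DAS and 1 at 25 DAS in wild type. Of the STP list, AT5G61520 rose with a log2 fold change of 4.44 in the mutant (edgeR adjusted p = 1.01e-09) and 5.24 in wild type (edgeR adjusted p = 1.65e-09). SWEET13, GPT2, CWINV6 and AT5G61520 passed the filter on low counts only through the libraries at 45 DAS, where they were high. Their rises are therefore not independent of the filter, and they are among the 24 and the 22 counted as rising. Other rising list genes with few counts, such as INT2 (94 over all libraries) and SPS2F (195), were not examined for this. The 24, the 22 and both medians may thus depend on the filter further.

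The sucrose phosphate synthase gene SPS1F averaged 128 ± 4.15 CPM at 45 DAS and 34.8 ± 7.39 CPM at 25 DAS in the mutant, and 161 ± 35.5 CPM at 45 DAS and 30.3 ± 4.78 CPM at 25 DAS in wild type. The ERD6-like AT3G05165 rose with a log2 fold change of 2.77 in the mutant (edgeR adjusted p = 6.15e-13) and 3.39 in wild type (edgeR adjusted p = 9.74e-10), while the ERD6-like AT2G48020 fell by 2.29 in the mutant (edgeR adjusted p = 2.54e-10) and fell by 2.27 in wild type (edgeR adjusted p = 8.02e-08). Named in the mutant, TPT fell by 1.77 (edgeR adjusted p = 2.82e-14), SWEET2 fell by 4.57 (edgeR adjusted p = 1.54e-11, where its wild-type change of -0.56 was not called, edgeR adjusted p = 0.365) and ATBETAFRUCT4 fell by 2.99 (edgeR adjusted p = 5.33e-10) on the log2 scale. Named in wild type, the vacuolar sugar carrier gene TMT2 rose by 2.52 (edgeR adjusted p = 2.75e-08), the vacuolar inositol carrier gene INT1 fell by 1.93 (edgeR adjusted p = 7.85e-08), and the ERD6-like AT1G19450 fell by 2.76 (edgeR adjusted p = 6.72e-09). They moved the same way in the mutant: TMT2 1.94 (edgeR adjusted p = 1.38e-09), INT1 -1.66 (edgeR adjusted p = 8.94e-06) and AT1G19450 -2.81 (edgeR adjusted p = 1.33e-09).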

How the data were processed

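Each of the 20 deposited files lists raw counts for every locus of 1 library, made by the authors with STAR 2.7.8a and TAIR10, per the submitters' processing notes. The counting tool, annotation, use of strand and collapsing of molecular identifiers are not given in the sources used here. Of 37336 loci, 37051 were found in the TAIR10.1 table, which gave symbols, coordinates and sequence. Per the labels' protocols, cDNA was primed with oligo(dT) carrying barcodes and cut with Tn5, so reads report transcript ends.

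The filterByExpr filter by group kept 14503 genes, and TMM (trimmed mean of M values) factors were computed over all 20 libraries. Each pair of groups was fitted alone with edgeR 4.0.16 (R 4.3.3, limma 3.58.1; quasi-likelihood, robust) because the spread differed between groups, and the interaction used all 20 libraries. The Benjamini-Hochberg adjustment covered all tested genes, with a threshold of 0.05 and a prior count of 2. SWEET15 was compared by exact permutation of 252 arrangements, with a pseudocount of 1, a choice made after its counts were seen. At 3 counts, the floor of a library was 1.28 to 3.97 CPM, and intervals and floors cover counting error only. Python 3.11.15, SciPy 1.17.1 and matplotlib 3.10.9 served the rest. The fits were tested on simulated data. Changes of 1 on the log2 scale were called in 69.4% of cases between genotypes at 25 DAS and 30.1% at 45 DAS. With age they were called in 73.3% in the mutant and 48.8% in wild type, and in the interaction in 20.2%. A result not called at 45 DAS or in the interaction thus does not exclude a change of that size.

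The transporters and lists were chosen with earlier results of these data known. Besides the transporters, up to 10 list genes per comparison are named, by smallest p among called genes that average 10 CPM or more in 1 group, and 2 nearest genes per transporter. Alternatives were DESeq2 size factors, the Wald test of DESeq2 1.42.0, upper-quartile scaling, limma voom, other filters, thinned counts, organelle genes left out, 1 fit of all libraries, a replicate block, each library left out, and, added after the data were seen, library totals alone. No pair of libraries in a group agreed within sampling noise (chi-square per degree of freedom 1.41 to 20.9 over 40 pairs).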

Additional observations from a re-analysis of the deposited data

Results flagged for a closer look

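In groups of 5 libraries, 1 library can stand apart from the other 4. Of the 40 groups examined (10 transporters in 4 groups), 5 held such a library, where chance gives about 1 in 20. SWEET4 had its lowest mutant library at 25 DAS at 1.81 CPM, in replicate 3. SWEET15 had its highest wild-type library at 45 DAS at 37.5 CPM, in replicate 1. STP1 had its highest mutant library at 45 DAS at 91.2 CPM, in replicate 5. STP4 had its lowest mutant library at 25 DAS at 17.4 CPM, in replicate 1, and the difference between genotypes at that age was called without it as well. ERDL6 had its lowest wild-type library at 25 DAS at 48.1 CPM, in replicate 5.

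The age changes of 2 transporters differed between the genotypes by the test of the interaction. For STP1 the age change in the mutant minus that in wild type was 1.54 on the log2 scale, and for STP4 it was 0.96.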

How the results depend on the processing

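Under the 21 alternatives to each comparison of 2 groups, STP1 at 25 DAS stayed called (log2 fold change -1.68 to -1.27, adjusted p up to 0.0404), as did STP4 at 25 DAS (-1.08 to -0.81), and the STP4 interaction was called in all 30 of its alternatives. With each library left out in turn, the number of transporters called was 2 to 2 at 25 DAS, 0 to 2 at 45 DAS, 6 to 8 with age in the mutant, 6 to 6 with age in wild type and 2 to 3 in the interaction. At 45 DAS it was 0 with a mean of at least 5 CPM, 0 with thinned counts, where SWEET4 was not tested, and 2 with the replicate block, which added STP13 (-0.64, adjusted p = 0.0212) and raised the calls over all genes to 902, against 444 without it. The fit without replicate 1 of wild type at 45 DAS gave 1430 calls over all genes at that age. The replicate numbers were not taken to pair the libraries, since the labels give them no meaning and deviations of same-numbered libraries correlated between -0.230 and 0.364. Between the genotypes at 45 DAS these correlations lay between 0.0176 and 0.364, and 3 of 5 libraries correlated best with their own number, a hint from the data and not from the design. Counts thinned to 615317 per library gave 5 calls with age in the mutant (SWEET12 0.41, SUC1 0.26 and SUC2 0.23 were lost), 1 in the interaction (STP1 1.54 was lost, adjusted p = 0.0643) and called STP13 at 25 DAS (-1.65, adjusted p = 0.0487).

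Scaling by library totals alone moved the median of all genes with age to 0.75 in the mutant and 0.72 in wild type. Relative to it the small age changes lay near the shift: SUC1 (0.70), SUC2 (0.81) and STP4 (0.75) became called in wild type, giving 7 higher and 2 lower, and in the mutant SWEET4 (0.80) became called and STP1 (-0.29, adjusted p = 0.429) was lost, giving 7 higher and 1 lower. Directions that turned were of uncalled values near 0. At 25 DAS these were SWEET11 (-0.000496 with voom, -0.12 thinned), SUC1 (0.0188 thinned) and ERDL6 (0.17 thinned, 0.00422 with the block). STP4 with age in wild type was -0.0483 thinned, and the STP13 interaction was -0.12 with voom. With 1 library left out, the values at 25 DAS ran from -0.0255 to 0.35 for SWEET4, from -0.0796 to 0.16 for SWEET11, from -0.0386 to 0.0513 for SUC1 and from -0.0648 to 0.0352 for ERDL6, and at 45 DAS from -0.0297 to 0.0851 for SUC2, from -0.0561 to 0.30 for STP1 and from -0.00844 to 0.12 for STP4. They ran from -0.0682 to 0.26 for SWEET4 with age in the mutant, from -0.0358 to 0.13 for SUC1 with age in wild type and from -0.21 to 0.47 for the STP13 interaction. The cause was not tested.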
